A study of Hevea brasiliensis with 21 samples.

Results

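In latex of rubber trees of clone PB260, 100 of 86941 contigs (assembled transcripts) were chosen because they were far lower in trees treated with ethephon than in control trees and stayed about as low in treated trees with severe tapping panel dryness. The choice used the mean CPM of 3 trees per group, where CPM is the number of read pairs counted on a contig scaled to its library's total of counted pairs. A contig qualified when its mean was at least 10 CPM in control trees and its mean in severe TPD trees lay within a factor of 1.5 of that in slight TPD trees with ethephon. These conditions held for 11335 contigs, and the 100 with the lowest log2 ratio of slight TPD trees with ethephon to control trees, after adding 0.5 CPM to each mean, were taken. The PB260 values therefore describe the choice and were not tested, whereas the 12 libraries of clone PB217 had no part in it.

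The series holds latex RNA sequencing of 21 trees, 3 per group, with 1 tree per library and all trees wild type. The PB260 groups, sampled after 36 months of tapping every second day, were control trees without ethephon (labelled PB260_S_D2_36_0_Healthy), slight TPD trees given ethephon 12 times a year (PB260_S_D2_36_12_Healthy) and severe TPD trees given the same treatment (PB260_S_D2_36_12_TPD). The labels call the first and the second of these groups healthy, whereas the study classes both as slight TPD from the dry part of their tapping cut. The PB217 groups were read from the titles as month 1 control (PB217_T_D1_1_0_Healthy), month 1 ethephon (PB217_T_D1_1_12_Healthy), month 36 control (PB217_T_D1_36_0_Healthy) and month 36 ethephon with TPD (PB217_T_D1_36_12_TPD). The 12 in 2 of these titles was read as ethephon 12 times a year, as for PB260. The study's text does not describe the PB217 trees, the letters T and S and the code D1 are not explained in the sources used here, and the labels enter no treatment for any library. PB217 reads were counted on contigs assembled from PB260. The control trees of month 36 of both clones were harvested on the same day and the treated trees of month 36 of both clones on another day, so at month 36 ethephon and harvest day cannot be told apart in either clone. Both month 1 groups shared a later harvest day.

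Ethephon is a compound that releases ethylene inside plant tissue and is applied to the bark of rubber trees to prolong the flow of latex after tapping. The latex that flows from a tapping cut is the cell content of laticifers, vessel-like bark cells in which rubber is made, so its RNA reports on those cells. Tapping panel dryness is the disorder in which part or all of the tapping cut stops yielding latex, and heavy stimulation by ethephon is known to favour it. The contigs carry names of the form CL, a number, Contig and a number, where contigs with the same CL number were grouped by the assembler as similar sequences. Such groups can hold gene copies, allelic forms or fragments of the same transcript.

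The libraries held 16102321 to 23126417 counted pairs. Correlations of log2(CPM + 0.5) with the other trees of the group averaged 0.936 to 0.987 per library, and were lowest in replicate 2 of the PB217 dry trees. CL1Contig7138, a contig of the translationally controlled tumour protein known from latex, stood at 1404 to 3560 CPM in all 21 libraries. The other contig of this protein, CL1Contig21026, had 1.72 to 15.4 CPM. CL5369Contig2, a contig of HMG-CoA reductase 3, was uneven. It had 0.608 to 4.83 CPM in PB260 control trees, 130 to 263 CPM in slight and 73.2 to 130 CPM in severe TPD trees. In PB217 it had at most 4.65 CPM. The 2 contigs held here with best matches to photosystem, chlorophyll or Rubisco proteins, markers of green bark cells, summed to at most 0.70 CPM. The 62 contigs with best matches to powdery mildew summed to 14.4 to 18.6 CPM in PB260 control trees, 9.21 to 14.3 CPM in slight and 5.91 to 11.9 CPM in severe TPD trees. Of the 62, only 6 had any count in the control trees and only 3 in each treated group. In the 12 PB217 libraries the sum was 2.05 to 7.77 CPM. None of the 62 is among the 100 contigs, and the part of these differences in the results was not tested.

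In PB260 the median of the 100 mean levels was 49.5 CPM in control trees, 9.54 CPM in slight TPD trees with ethephon and 10.9 CPM in severe TPD trees. The median log2 ratio of slight TPD trees with ethephon to control trees was -2.15, against 0.13 over the 11335 contigs that met the conditions. Of the control level, a median of 21.1% was left in slight TPD trees with ethephon (range 3.32 to 26.8%) and 25.0% in severe TPD trees (3.67 to 38.1%). On the scale of the choice, with 0.5 CPM added to each mean, the level in slight TPD trees with ethephon was over 8-fold lower in 10 contigs, in 64 it was 4- to 8-fold lower and in 26 less than 4-fold lower. All 100 had non-overlapping groups of slight TPD trees with ethephon and control trees, as did 15.4% of all contigs in that direction, a count the choice itself favours. For severe TPD against control trees, 99 of 100 did not overlap, against 16.9% of all contigs, and the choice favours this count as well. The severe TPD mean was above the slight TPD mean in 83 contigs and below it in 17, with a median ratio of 1.20, and these groups did not overlap in 7 contigs, all higher in severe TPD (4.73% of all contigs).

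**Figure D1:**
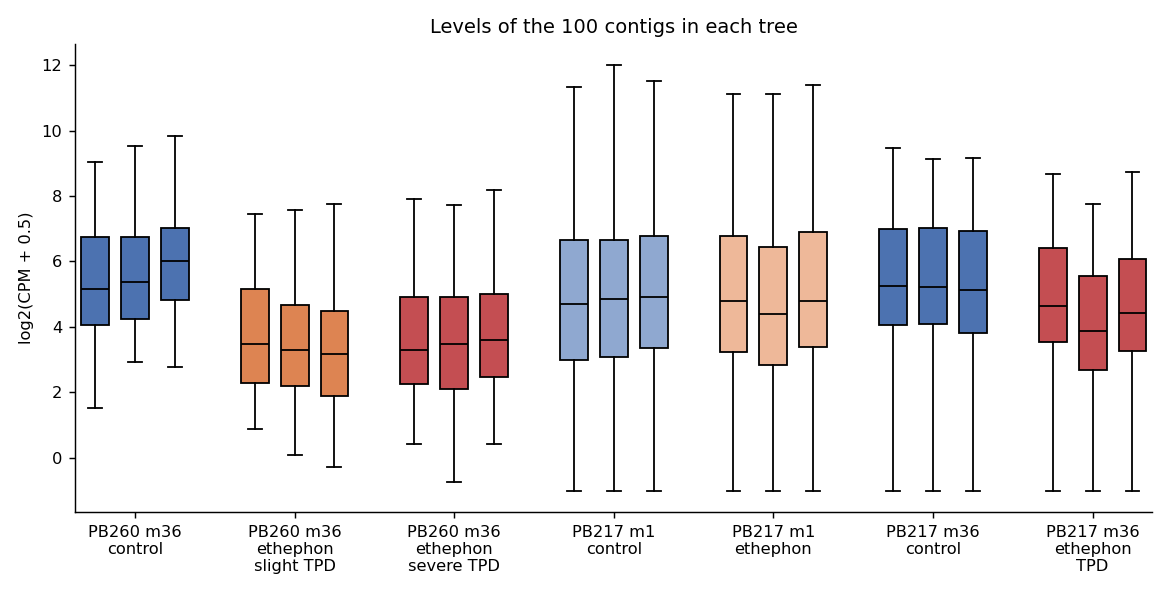
Box plots of log2(CPM + 0.5) of the 100 contigs in each of the 21 trees, 3 boxes per group for replicates 1, 2 and 3 (box, quartiles; line, median; whiskers, lowest and highest contig; m1 and m36, month of tapping). By their medians the 6 treated PB260 trees sit below the 3 control trees, and the PB217 dry trees lie between, with replicate 2 lowest of its group.

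The 100 contigs are the smaller part of those that were low with ethephon. Among contigs with at least 10 CPM in control trees, 275 were as far below control as the last member or farther. In 172 of these the severe TPD mean exceeded 1.5 times the slight TPD mean, and in 3 it was under the lower limit. The members nearest to the limits were CL1Contig19801, with 134 CPM in severe against 89.3 CPM in slight TPD trees, and CL1Contig11190, with 4.04 against 5.42 CPM. Just outside lay CL5023Contig3 with 3.50 against 2.33 CPM and CL4448Contig2 with 0.741 against 1.32 CPM. By rank, the last member, CL9173Contig1, and the next contig, CL1Contig13773, both had a log2 ratio of -1.88. The edge of the set is therefore a matter of rank and not a gap in the data.

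**Figure D2:**
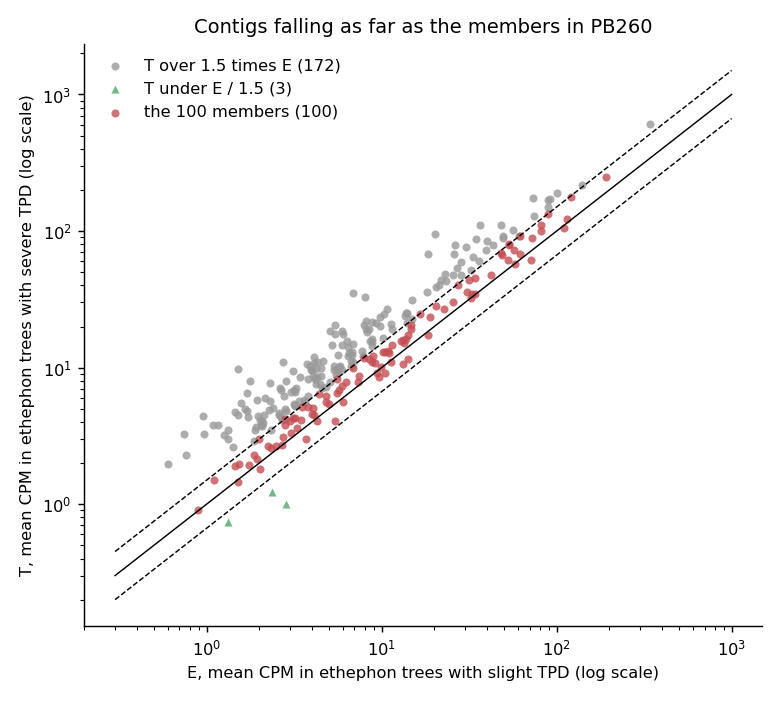
Mean CPM in slight TPD trees with ethephon (x axis) against severe TPD trees (y axis), both on log scales, for the 275 contigs as far below control as the members. The solid line marks equal means and the dashed lines a factor of 1.5. The 100 members lie between the dashed lines and 172 contigs lie above.

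The deepest difference was that of CL6296Contig1, a contig of 738 bases and the only one of its cluster. It had 12.6, 34.0 and 112 CPM in the 3 control trees, 2.84, 1.43 and 0.999 CPM in slight TPD trees with ethephon and 1.08, 2.42 and 2.33 CPM in severe TPD trees. The log2 ratio was -4.57, but control replicate 3 alone held 70.7% of the control sum. Its PB217 levels were 0.791 to 6.31 CPM in all 12 trees, so that the high level was found in PB260 control trees and not in PB217 control trees.

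CL1Contig21273 had steady control levels, of 65.9, 74.2 and 72.8 CPM. It had 2.99 ± 2.12 CPM (SD, n = 3) in slight TPD trees with ethephon and 2.21, 4.80 and 5.14 CPM in severe TPD trees. Control trees thus differed from each other by far less than from any treated tree. A similar evenness was seen in CL715Contig3, with 86.1, 107 and 91.1 CPM in control trees and 6.54 to 11.7 CPM in the 6 treated trees.

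CL1Contig3257, the longest of the 100 at 5297 bases, had 7.33, 18.3 and 87.1 CPM in control trees. It had 6.06, 0.559 and 3.22 CPM in slight TPD trees with ethephon and 3.70, 0.101 and 7.04 CPM in severe TPD trees. The lowest control tree and the highest treated trees were thus nearly level, and the mean rested on replicate 3. The same held for CL1Contig20753, with 2.98, 7.14 and 30.9 CPM in control trees.

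The other contigs over 8-fold lower on the scale with 0.5 CPM added were CL1298Contig5, CL2055Contig8, CL1Contig10506, CL8745Contig1, CL1Contig6480 and CL6483Contig2. Of the 10, CL1Contig10506 was the most abundant, with 461, 216 and 289 CPM in control trees, 56.9, 25.0 and 17.2 CPM in slight TPD trees with ethephon and 29.2, 43.3 and 31.2 CPM in severe TPD trees. CL1Contig6480 was the least abundant, with 8.56 to 15.8 CPM in control trees and 0.318 to 1.66 CPM in the 6 treated trees. In all 6 contigs the lowest control tree was above every treated tree.

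Among the 5 contigs with the highest control level, CL1Contig14687 had 524, 745 and 904 CPM in control trees. It kept 175, 188 and 214 CPM in slight TPD trees with ethephon and 239, 212 and 293 CPM in severe TPD trees, so these transcripts remained abundant in treated trees. CL1Contig14202 had even levels within each group, of 415 to 470 CPM in control trees, 110 to 125 CPM in slight TPD trees with ethephon and 97.2 to 142 CPM in severe TPD trees. The others, CL1Contig11025, CL1Contig10883 and CL1Contig19801, had 253 to 779 CPM in control trees and 62.3 to 211 CPM in treated trees.

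Control replicate 3 had a particular place in the set. It was the highest control tree in 79 of the 100 contigs, but in 34.3% of the 11335 contigs that met the conditions. In 33 contigs the highest control tree exceeded the lowest over 2-fold, and in 3 of these (CL6296Contig1, CL1Contig3257 and CL1Contig20753) replicate 3 held over 2/3 of the control sum. In 87 contigs the highest slight TPD tree with ethephon had less than 1/2 the level of the lowest control tree. The choice itself favours this count, and its share over all contigs was not computed. When replicate 3 was left out of the rule, 79 of the 100 contigs were chosen again, and with TMM-scaled levels 70 were.

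The members' levels in PB217 control trees of month 36 were within 2-fold of the PB260 control mean in 71 contigs, over 2-fold above it in 11 and over 2-fold below it in 18. At month 1, PB217 control trees were within 2-fold in 46, above in 14 and below in 40. Medians of the mean levels were 27.0 CPM in month 1 control trees, 24.8 CPM in month 1 ethephon trees, 35.8 CPM in month 36 control trees and 18.9 CPM in month 36 dry trees.

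At month 36 in PB217, dry trees with ethephon had lower levels than control trees for most of the contigs chosen in PB260. Of 97 contigs tested, 47 were called lower and 0 higher (edgeR quasi-likelihood test, adjusted p under 0.05), against 4.43% of all 29124 contigs tested that were called lower and 4.51% called higher. At an unadjusted p under 0.05, 78 were lower (14.7% of all contigs) and 1 was higher (16.2%). The median log2 fold change was -1.22, against 0.06 over all contigs, and 91 of 97 were negative. In plain CPM a median of 56.5% of the control level was left. The 172 contigs that fell as far with ethephon in PB260 but lay above the upper limit in severe TPD gave 71 called lower of 171 tested and a median of -1.46 in the same libraries, and the lists were not tested against each other. TPD, ethephon and harvest day cannot be told apart in this comparison.

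CL715Contig3 had the largest fold change of those called, with 22.6, 127 and 39.9 CPM in control trees and 9.30, 5.95 and 7.18 CPM in dry trees. Its groups did not overlap, although control replicate 2 was far above the others (log2 fold change -3.48 ± 0.60 SE, adjusted p = 0.0184 by edgeR). CL8506Contig3 had 11.3, 20.4 and 12.4 CPM in control trees and 2.28, 3.30 and 2.38 CPM in dry trees. These values, too, did not overlap and were more even (-2.88 ± 0.30, adjusted p = 0.00689 by edgeR).

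CL1Contig21273, so low in treated PB260 trees, had 212, 307 and 265 CPM in PB217 control trees and 81.1, 18.4 and 75.8 CPM in dry trees. The difference was called (log2 fold change -2.53, adjusted p = 0.0281 by edgeR), but 2 of the 3 dry trees kept levels above those of the PB260 control trees. CL1Contig11190 had 39.6, 111 and 34.0 CPM in control trees and 8.10, 2.37 and 13.8 CPM in dry trees, and was called at -3.26 (adjusted p = 0.0293 by edgeR). CL80Contig5 was called from 4.19, 1.01 and 1.66 CPM in control trees and 0.248 to 0.558 CPM in dry trees, and passed the filter on low counts through the control trees alone.

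Some contigs that head the PB260 order did not move this way. CL6296Contig1 had 1.60, 3.08 and 3.21 CPM in month 36 control trees and 6.31, 0.791 and 5.55 CPM in dry trees, which overlapped (adjusted p = 0.777 by edgeR). CL1Contig3257 had 12.8, 11.2 and 10.8 CPM in control trees and 26.9, 18.9 and 21.9 CPM in dry trees, without overlap in plain CPM. After TMM scaling its log2 fold change was 0.56 and was not called (adjusted p = 0.123 by edgeR).

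Leaving out any 1 control tree lowered the number of month 36 calls, among the 100 and over all contigs. Without control replicate 1, 1 of the 100 contigs was called lower (0.0245% of all contigs tested), and without replicate 2, 13 were (0.3%). Without replicate 3 edgeR called 0 (0% of all contigs), while 65 then were lower at an unadjusted p under 0.05 (10.5%) and 89 of 95 were negative. Without replicate 1, 88 of 95 were negative, and without replicate 2, 91 of 96 were. The members' median log2 fold change was -1.15, -1.30 and -1.18 without control replicate 1, 2 and 3. With all trees it was -1.22. Without dry tree 1, 23 were called lower (0.898%), without dry tree 2, 52 (5.62%), and without dry tree 3, 57 (8.82%). Dry tree 2 was the lowest of its group in 68 of the 100 contigs, but in 32.3% of the 11335 contigs that met the conditions.

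Scaling mattered as well. TMM, which sets libraries level on the bulk of contigs, lowered all month 36 log2 fold changes by 0.42 relative to scaling by library totals. With library totals, 2.49% of all contigs were called lower and 19.3% higher, whereas 46 of the 100 were called lower, 45 of them among the 47 above, and 2 higher. In plain CPM, 59 of the 100 had dry trees entirely below control trees (7.39% of all contigs) and 3 entirely above (38.8% of all contigs). After TMM scaling these were 74 (19.8%) and 3 (17.7%).

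In the month 1 trees of PB217, which shared a harvest day, no lower level with ethephon was called. Of 96 contigs tested, 0 were called lower and 0 higher by edgeR's quasi-likelihood test, as were 0% of all 27226 contigs in either direction. At an unadjusted p under 0.05, 15 were lower (3.75% of all contigs) and 8 were higher (4.4%), and DESeq2 and edgeR's exact test each called 1 contig, CL1Contig5636, higher (0.18 and 0.264% of all contigs). The median log2 fold change was -0.06, and 56 of 96 were negative. The 4 contigs not tested had at most 0.562 CPM in any of these libraries. In plain CPM, 12 of the 100 had ethephon trees entirely below control trees (6.74% of all contigs) and 7 entirely above (3.85% of all contigs).

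Among the contigs at the top of the PB260 order, CL715Contig3 had 3.83, 4.58 and 3.60 CPM in control trees and 5.27, 4.29 and 4.41 CPM in ethephon trees. CL1Contig10506 was the most abundant of the 100, with 2550, 4080 and 2945 CPM in control trees and 2240, 2233 and 2689 CPM in ethephon trees. In both contigs the groups overlapped. CL1Contig21273 had 102, 119 and 109 CPM in control trees and 48.6, 60.6 and 84.1 CPM in ethephon trees, which did not overlap in plain CPM, and was not called (log2 fold change -0.63, adjusted p = 0.576 by edgeR). The largest change toward lower levels was that of CL1Contig3257, with 3.71, 4.11 and 9.46 CPM in control trees and 2.23, 1.64 and 2.89 CPM in ethephon trees, which did not overlap (log2 fold change -1.20, adjusted p = 0.576 by edgeR). CL1Contig5636 had the largest change toward higher levels, with 2.94, 4.71 and 2.05 CPM in control trees and 10.4, 5.83 and 6.14 CPM in ethephon trees, also without overlap (1.30, adjusted p = 0.514 by edgeR).

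The difference between the responses of month 36 and month 1 was tested itself, over the 12 PB217 libraries. The response was called more negative at month 36 in 34 of 97 contigs (4.32% of all 30609 contigs tested) and more positive in 1 (2.26%), with a median difference of -1.31 on the log2 scale against 0.02 over all contigs. Of the 172 contigs above the upper limit in severe TPD, 171 were tested. Of these, 58 were called more negative and 0 more positive, with a median of -1.44. The lists were not tested against each other. TPD, harvest day and the trees themselves also differed between the 2 responses and cannot be told apart from the months of tapping. Leaving out 1 library at a time gave 14 to 56 of the 100 contigs as more negative. The number was 14 without month 1 control replicate 2 (0.947% of all contigs) or month 1 ethephon replicate 3 (0.973%), 16 without month 1 control replicate 3 (0.921%) or month 36 control replicate 3 (1.41%), 20 without month 36 control replicate 2 (1.55%), 22 without month 36 control replicate 1 (2.37%) or month 1 ethephon replicate 2 (1.53%), and 56 without dry tree 3 (10.5%). TMM lowered the differences of all contigs by 0.59 relative to library totals, with which 20 of the 100 were more negative (1.56% of all contigs) and 1 more positive (14.2%).

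CL715Contig3 had the largest negative difference (-3.86 ± 0.68 SE, adjusted p = 0.0121 by edgeR), followed by CL1Contig10274 and CL1Contig20989. CL1Contig10274 had 62.2, 39.7 and 38.9 CPM in month 1 control trees and 80.0, 60.1 and 65.6 CPM in month 1 ethephon trees. At month 36 it had 162, 110 and 83.4 CPM in control trees and 28.4 ± 11.6 CPM (SD, n = 3) in dry trees, so that the groups overlapped at month 1 and were well apart at month 36 (difference -3.12 ± 0.49 SE, adjusted p = 0.0100 by edgeR). CL1Contig20989 followed the same course at higher levels, with 405 to 714 CPM in month 36 control trees and 99.3 to 200 CPM in dry trees. The single positive difference was that of CL1Contig3257 (1.72 ± 0.40 SE, adjusted p = 0.0279 by edgeR), and its call was lost when any of 7 of the 12 libraries was left out.

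**Figure D3:**
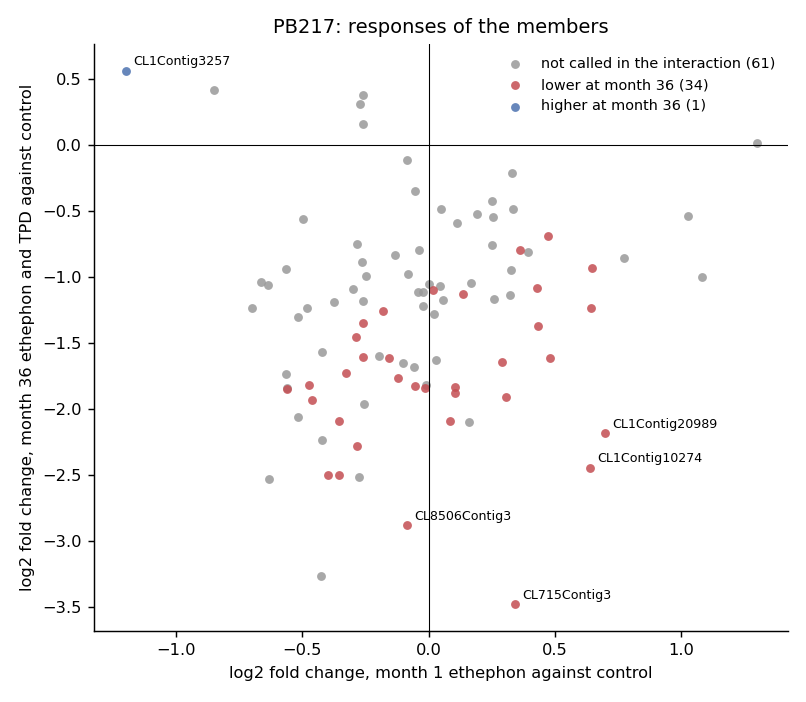
Log2 fold change with ethephon at month 1 (x axis) against that of dry trees with ethephon at month 36 (y axis) for the 96 contigs tested in both PB217 comparisons, coloured by the call of the difference between the responses. Most points lie below 0 on the y axis and on either side of 0 on the x axis.

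Between the control trees of month 1 and month 36, which differed in harvest day, the contigs did not share a direction. Of 97 tested, 22 were lower at month 36 (17.2% of all contigs tested) and 38 were higher (18.1%), with a median log2 fold change of 0.23. In trees with ethephon, the dry trees of month 36 were lower than the month 1 trees in 44 of 96 contigs (12.1% of all contigs) and higher in 16 (12% of all contigs), with a median of -1.03. With library totals, relative to which TMM lowered all these log2 fold changes by 0.55, the latter numbers were 36 (4.81%) and 20 (32.5%). Without month 1 ethephon replicate 1, 2 or 3, the 16 contigs became 10 (5.97%), 10 (5.39%) and 7 (3.72%), and without dry tree 1 they became 10 (7.05%). The 2 comparisons share no library, and 96 contigs were tested in both. Of these, 21 were lower in both (6.84% of all contigs tested in both), 14 higher in both (5.01%), 21 higher in control and not called with ethephon (12.5%), and 21 lower with ethephon and not called in control (5.5%).

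The 21 contigs lower at month 36 in both had a median level of 163 CPM in month 1 control trees and 79.4 CPM in month 36 control trees, and of 133 and 38.6 CPM in the corresponding ethephon trees. CL1Contig10506 stood out among them. Against its 2550, 4080 and 2945 CPM at month 1, control trees of month 36 had 320, 161 and 276 CPM, and dry trees 104, 14.0 and 55.3 CPM. The log2 fold changes were -3.62 in control trees and -5.90 with ethephon (adjusted p = 1.43e-05 and 0.00129 by edgeR).

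CL2188Contig1 had 843, 803 and 836 CPM in month 1 control trees and 697, 801 and 893 CPM in month 1 ethephon trees. At month 36 it had 327, 333 and 311 CPM in control trees and 113, 60.1 and 122 CPM in dry trees. The 2 month 1 groups overlapped, whereas each month 36 group lay below them, the dry trees lowest. In PB260 the same contig had 62.5 to 90.5 CPM in control trees and 16.2 to 27.8 CPM in treated trees. In CL280Contig4, CL1Contig64 and CL61Contig7 every month 1 tree was likewise above the month 36 control trees, and these above the dry trees, with log2 fold changes of -3.32, -3.65 and -3.33 with ethephon.

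**Figure D4:**
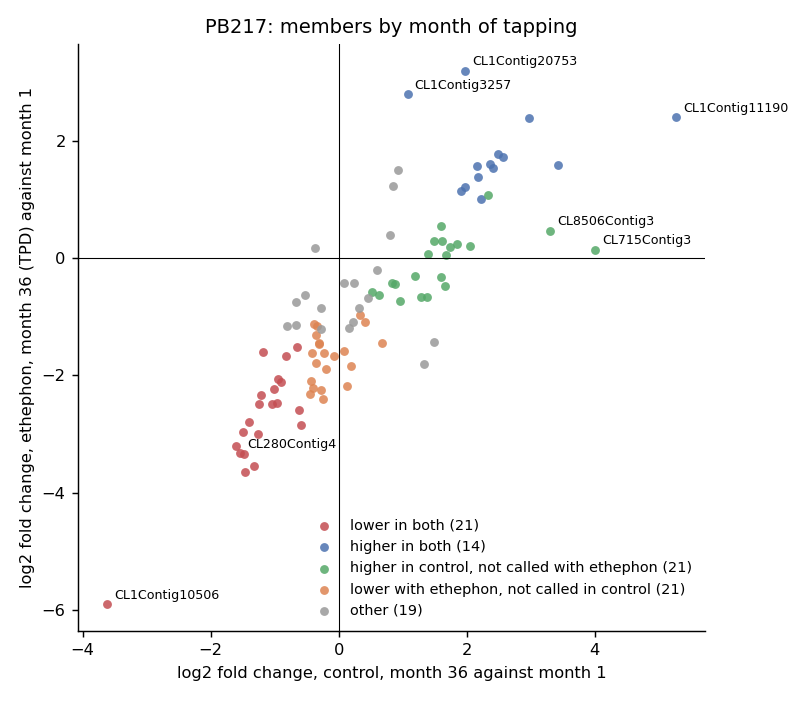
Log2 fold change of month 36 against month 1 in PB217 control trees (x axis) and in trees with ethephon (y axis, with TPD at month 36) for the 96 contigs tested in both, coloured by the pair of calls. The 21 contigs lower in both and the 14 higher in both lie at opposite ends.

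Of the 14 contigs higher at month 36 in both, 13 belong to CL1, a cluster of 21426 contigs that holds 51 of the 100 members and 41.6% of the 11335 contigs that met the conditions. Within these 13, 8 contigs of 222 to 960 bases had much the same course over the groups. They were picked out after their values were seen. CL1Contig11062, the most abundant, had 366, 312 and 349 CPM in PB260 control trees, 76.6, 99.6 and 67.1 CPM in slight TPD trees with ethephon and 122, 113 and 96.4 CPM in severe TPD trees. In PB217 it had 31.1 to 42.2 CPM in the 6 month 1 trees, 171, 241 and 206 CPM in month 36 control trees and 206, 214 and 148 CPM in dry trees.

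The 8 contigs had 3.84 to 7.59 times their month 1 level in month 36 control trees. None of the 8 was called in dry against control trees of month 36, where their log2 fold changes were -0.21 to -0.69. In the difference between the responses of month 36 and month 1, CL1Contig2177 was called more negative and the others were not called. In PB260 slight TPD trees with ethephon had about 1/4 of the control level of each of the 8, and the difference between the clones was not tested. The others of the 8 are CL1Contig10238, CL1Contig16841, CL1Contig18844, CL1Contig2177, CL1Contig10454, CL1Contig10794 and CL1Contig9968. Whether the 8 are parts of the same transcript was not tested, and they are not counted here as separate genes.

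CL1Contig11190 and CL1Contig7868 were also among the 14. CL1Contig11190 had 1.68, 1.73 and 1.45 CPM in month 1 control trees and 39.6, 111 and 34.0 CPM in month 36 control trees, the largest change over months in control trees (log2 fold change 5.28, adjusted p = 2.02e-05 by edgeR). CL1Contig7868 had 0.659, 0.865 and 1.95 CPM at month 1 and 13.1, 11.4 and 11.8 CPM at month 36 (3.43, adjusted p = 1.44e-05 by edgeR). At month 1 only 1 of these control libraries reached 1 CPM, so this contig passed the filter on low counts through the month 36 trees, where it is high. With ethephon, CL1Contig20753 had the largest change toward higher levels, with 0.807, 0.530 and 1.58 CPM at month 1 and 14.5, 13.3 and 11.1 CPM in dry trees of month 36, and it too passed the filter through the trees where it is high. This was so of 4 of the 38 contigs called higher at month 36 in control trees and of 3 of the 16 with ethephon.

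**Figure D5:**
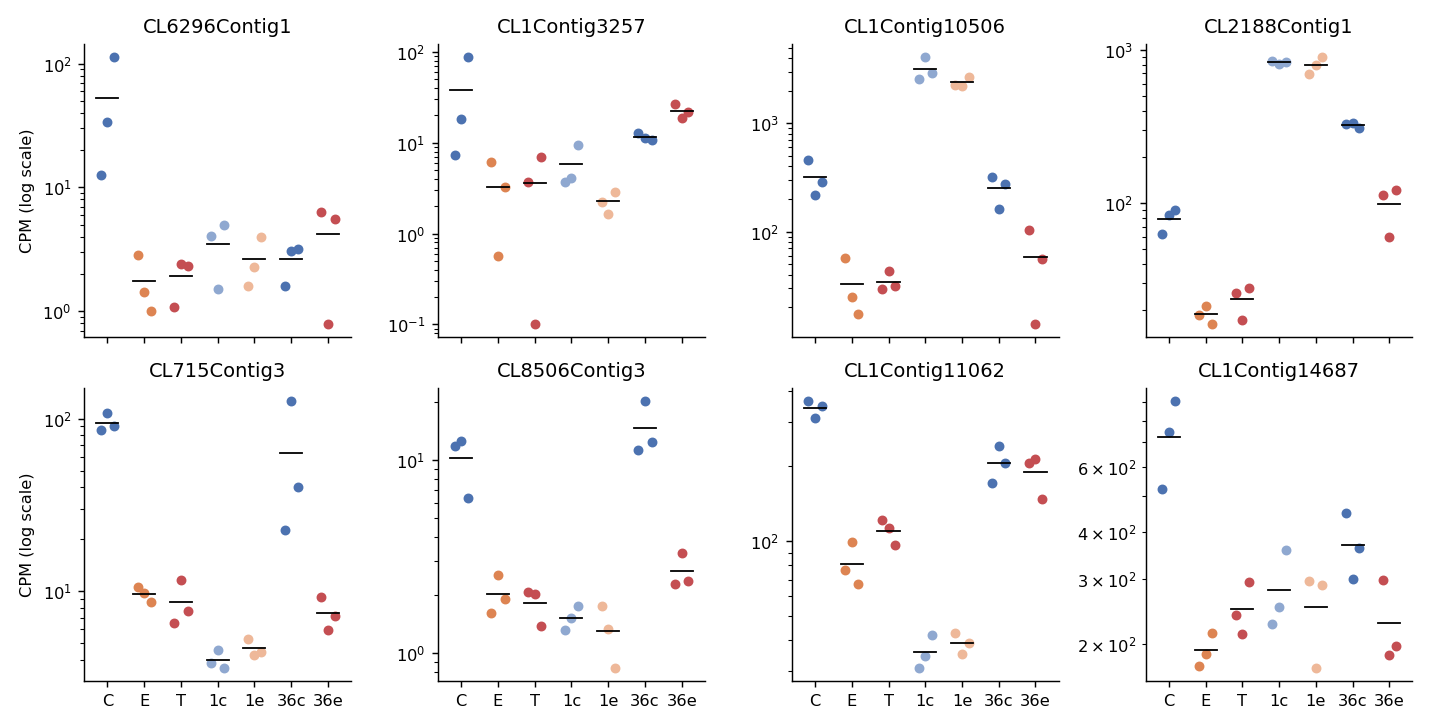
CPM per tree on log scales for 8 of the contigs, with the mean of each group as a bar (C, E and T, PB260 control, slight TPD with ethephon and severe TPD; 1c and 1e, PB217 month 1 control and ethephon; 36c and 36e, PB217 month 36 control and ethephon with TPD). CL715Contig3 and CL8506Contig3 have their highest means in the 2 control groups of month 36, and CL1Contig10506 has 2233 to 4080 CPM in the 6 month 1 trees.

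Some members were nearly without reads in PB217. CL18577Contig1 had 20.1, 14.6 and 13.7 CPM in PB260 control trees and 0 counted pairs in 11 of 12 PB217 libraries, with 0.0574 CPM in the other. Over the 3 month 1 control libraries a count of 0 allows up to 0.0502 CPM. CL21266Contig1 had 8.91 to 17.3 CPM in PB260 control trees and at most 0.435 CPM in PB217, and CL6483Contig2 had 19.7 to 27.9 CPM and at most 0.744 CPM. None of the 3 was tested in PB217, and absence of the transcript and a PB217 sequence too different to map to the PB260 contig cannot be told apart.

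Outside CL1, the members lie in 44 other clusters, and 11 members are alone in theirs. Of the 137 other contigs in the 31 clusters that hold a member and have at most 20 contigs, 72 reached 1 CPM in control trees or in slight TPD trees with ethephon. With 0.5 CPM added to each PB260 mean, 46 of the 72 were over 2-fold lower with ethephon, 26 were within 2-fold and 0 were over 2-fold higher, with a median log2 ratio of -1.24. Among all contigs at that level, 6.34% were over 2-fold lower. Reads that fit several contigs equally were left out by the authors, so similar contigs may share or lose reads, and their likeness is not that of independent genes.

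In 5 clusters a pair of members was found. CL2819Contig3 had 42.3, 38.1 and 52.1 CPM in PB260 control trees and 10.4 to 13.8 CPM in treated trees, and CL2819Contig5 had 12.8, 11.4 and 22.7 CPM and 2.36 to 3.99 CPM. Both were called lower in PB217 dry trees, at -1.82 and -1.73 (adjusted p = 0.0141 and 0.0247 by edgeR). In CL887, Contig2 was called at -1.24 (adjusted p = 0.0429) and Contig1 was not, at -0.93 (adjusted p = 0.0746), and in CL4304, Contig2 was called at -1.09 (adjusted p = 0.0275) and Contig1 was not, at -0.84 (adjusted p = 0.0631). Neither member of CL460 nor of CL2884 was called, with log2 fold changes of -0.57 to -1.24.

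Some clusters held contigs that did not share the lower level. CL2055Contig8 had 9.13, 12.4 and 29.2 CPM in PB260 control trees and 0.847 to 2.03 CPM in treated trees. CL2055Contig3 of the same cluster had means of 17.8 CPM in control trees, 13.4 CPM in slight TPD trees with ethephon and 10.9 CPM in severe TPD trees. In CL564, Contig7 is a member with 30.1 to 65.0 CPM in control trees and 6.26 to 13.0 CPM in treated trees, whereas Contig6 had 57.5 to 72.5 CPM in control trees and 65.5 to 89.4 CPM in treated trees. Similar sequences thus had unlike courses in these clusters.

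Annotation was held for 1960 contigs, of which 1 is a member. CL1038Contig7 had as best match a nucleolar protein 56-like protein but as gene ontology term metal ion binding, so that its name is not settled. Of the 7 other contigs of CL1038, Contig4 and Contig6 also had nucleolar protein 56-like proteins as best match, Contig3 and Contig8 had random slug protein 5, and Contig2 alone had a metal ion binding protein. The member, CL1038Contig7, had 11.1, 18.3 and 35.5 CPM in PB260 control trees. In trees with ethephon it had 3.86, 4.16 and 1.63 CPM with slight and 2.34, 5.96 and 4.61 CPM with severe TPD. In PB217 it had 15.6, 17.4 and 13.7 CPM in month 36 control trees and 22.1, 2.98 and 8.82 CPM in dry trees, which overlapped (log2 fold change -0.86, adjusted p = 0.330 by edgeR). The functions of the other 99 contigs are not given here.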

How the data were processed

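Latex RNA of 21 trees was sequenced by the authors as stranded, paired-end libraries of polyA RNA. Per the labels and the study's methods, reads were trimmed, ribosomal reads removed, and the rest mapped with Bowtie2 (TopHat2 is also named in the submitters' processing notes) to the PB260 reference transcriptome. Per the file headers, the deposited values are raw counts of read pairs with both mates on a contig, and no such step was repeated. The members and lists were chosen with earlier results of these data known. Levels are CPM of the library total, with means and SDs over 3 trees. PB217 was tested with edgeR 4.0.16 in R 4.3.3 (quasi-likelihood F test, TMM, contigs with at least 1 CPM in at least 3 libraries of the fit, Benjamini-Hochberg adjustment over all contigs tested, threshold 0.05). Replicates are separate trees. An exact permutation test of 3 trees against 3 cannot give a p under 0.1, so no single contig was tested that way. Alternatives were DESeq2 size factors, no count filter, DESeq2 1.42.0, edgeR's exact test (the test the study names), all 12 PB217 libraries in a single model, a block for the replicate number, the omission of single libraries and, chosen after seeing the data, library totals without TMM. The script was tested on simulated data. Contigs named in the text were the annotated member, the first 10 and last 3 by rank with the next 3, the 5 with the highest control level, the 3 at each end of the severe to slight ratio, the 5 largest calls per direction in PB217 (3 for the difference of responses), those below 0.5 CPM in all PB217 libraries and pairs within a cluster, and the text names a part of these. CL1Contig5636, CL6483Contig2 in its PB217 levels, the 8 contigs of CL1 and the contrasting cluster contigs were chosen after their values were seen. Annotation came from the part of the supplementary tables held here. Counting limits cover counting error only.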

Additional observations from a re-analysis of the deposited data

Results flagged for a closer look

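The difference between the PB217 responses to ethephon at month 36 and month 1 was tested itself. The response was called more negative at month 36 in 34 contigs (4.32% of all contigs) and more positive in 1 (2.26%). With library totals 20 were more negative (1.56%), and leaving out 1 library gave 14 (0.947% or 0.973%) to 56 (10.5%). Of the 172 contigs above the upper limit in severe TPD, 171 were tested and 58 were called more negative. The log2 differences were -3.86 for CL715Contig3, -3.12 for CL1Contig10274, -2.92 for CL1Contig20989 and 1.72 for CL1Contig3257. TPD, harvest day and the trees differed as well and cannot be told apart from the month.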

How the results depend on the processing

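At month 36 in PB217, 47 contigs were called lower (4.43% of all contigs). The number was 73 without a count filter (4.1%) and 75 in the fit of all 12 libraries (12.6%). Under every setting that kept all libraries, 44 were called lower, and the matching share of all contigs was not computed. Leaving out 1 library gave 0 to 57 called lower and 0 to 1 called higher, and library totals without TMM gave 2 called higher. At month 1, no count filter gave 2 lower (0.239%) and 8 higher (0.464%), DESeq2 and edgeR's exact test 1 higher each, and leaving out 1 library 0. For ethephon trees of month 36 against month 1, 32 were lower without month 1 replicate 3 (4.61%) and 47 without dry tree 2 (13.6%) or 3 (12.9%). Those higher ranged from 7 without month 1 replicate 3 (3.72%) to 18 without dry tree 2 (12.5%). For control trees, 18 were lower without month 36 replicate 3 (12.4%) and 26 without month 36 replicate 1 (14.3%). Those higher ranged from 36 without month 36 replicate 3 (14.2%) to 39 without month 1 replicate 1 (17.3%). For the difference of responses, library totals gave 20 more negative (1.56% of all contigs), no count filter 68 (3.74%) and DESeq2 52 (7.87%), against 34 (4.32%), and leaving out 1 library 14 to 56 more negative and 0 to 1 more positive. The cause was not tested.

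Of the 100 contigs, 56 were chosen again with a narrower window around the slight TPD mean and 48 with a wider window, of 2, 70 with TMM-scaled levels, 72 with medians over trees and 73 to 88 when 1 library was left out. The median log2 ratio of slight TPD trees with ethephon to control was -2.34 with TMM and -2.32 with DESeq2 scaling. TMM and library totals differ in the median of all contigs by 0.42 at month 36, 0.55 between ethephon groups and 0.59 in the difference of responses.

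Whether the replicate number shared by PB217 groups pairs the trees was not tested. Correlations of same-numbered deviations from the group mean were 0.09, 0.01 and 0.19 at month 36 and -0.48, 0.09 and 0.32 at month 1. Those of different-numbered trees ran from -0.17 to 0.07 and from -0.61 to 0.54. With the replicate number as a block, 57 contigs were lower at month 36 (5.49% of all contigs). At month 1, 0 were called (0% of all contigs lower and 0.022% higher). Between months, 23 were lower (15.5%) and 39 higher (17.1%) in control trees, and 44 lower (7.77%) and 13 higher (6.66%) in ethephon trees. In the difference of responses 33 were more negative (3.19%). No setting reversed a called contig named here.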
